A study of Danio rerio with 82 samples.

Results

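The USP genes encode the ubiquitin-specific proteases, a large family of deubiquitinases, and their transcripts were followed through 4 growth stages of the zebrafish (Danio rerio) oocyte. Members were taken by name, as every locus whose symbol starts with usp and a digit in any letter case, which gave 53 loci with 52 symbols among 28405 loci. The libraries are poly(A) RNA of stage I, II, III and IV oocytes of the wild-type Tu strain, 1 library per stage, out of a series of 82 samples. The labels call these cells G1-phase, S-phase, prophase I and metaphase I oocytes. The oocytes were sorted by shape from adult ovaries, with follicle cells stripped off as well as could be done, and the labels do not say how many animals or oocytes went into a library. Replicate checks and p-values cannot be had from single libraries, so higher and lower describe these 4 libraries, and every comparison shares libraries with another.

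Ubiquitin is a small protein that is joined to other proteins as single units or chains, which can send them to the proteasome or change their activity. Deubiquitinases cut it off again, and the USP enzymes are the largest class of them, with a cysteine in the active site. Oocytes store proteins and mRNAs for the embryo, and completing meiosis depends on timed destruction of cyclins through ubiquitin. Roles named below are those of the human namesakes unless another source is given. By those roles usp6nl is a Rab GTPase-activating protein and no deubiquitinase, and usp39 is a spliceosome protein without the active-site residues. Both meet the naming rule and are kept in the counts.

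The authors gave each locus an FPKM value, which counts fragments relative to transcript length and library size, with a lower and an upper bound. If the bounds reflected counting alone, the libraries would hold at least 6201820 to 6606980 fragments, and the values of the USP loci tested would rest on a median of 371 fragments (range 1.3 to 2464). Oocyte genes were present in all stages, with buc, a germ plasm organizer gene, at 749, 601, 728 and 118 FPKM across stages I to IV, while both figla loci were listed at 0. Of 8 tested oocyte markers 6 were lower and 1, dazl, higher in stage IV than in stage I by the 2-fold rule used below. Their median log2 difference was -2.71. Over all loci 44.4% were lower and 19.1% higher between these stages, with a median of -0.75. Markers of follicle cells summed to 405, 333, 678 and 208 FPKM across stages I to IV, and those of blood cells to 58.8, 29.9, 91.9 and 7.53. In stage IV most of the follicle sum was cyp11a1 (170 FPKM) and cyp17a1 (33.8 FPKM). Stroma and epithelium markers summed to 1741, 1073, 1036 and 2784 FPKM, of which epcam alone made up 1216, 870, 462 and 2779. By the same rule 4 of 9 tested ones were lower in stage II than in stage I, and 0 were higher. Over all loci these shares were 3.15% and 2.67%. Between stage IV and stage III, 11 of 13 follicle, 8 of 8 blood and 8 of 9 stroma and epithelium markers were lower by the same rule. The rest were cyp11a1 and cyp17a1, short of the rule, and epcam, which was higher. Over all loci 46.0% were lower and 16.4% higher in stage IV than in stage III. The follicle genes fshr, lhcgr and star were listed at 0 in stage IV. What RNA of other cells adds to the USP values was not tested, and in such bulk libraries fewer cells of a type cannot be told apart from less RNA per cell.

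As a family the USP transcripts summed to 943, 1296, 910.4 and 1152 FPKM across stages I to IV, or 0.122%, 0.183%, 0.113% and 0.169% of all FPKM. The family total in stage IV was thus above that of stage I, whereas the level of the median USP locus was below it. The mean level reached 1 FPKM for 38 USP loci, whose median stood at 16.0, 23.5, 16.4 and 6.70 FPKM across stages I to IV, against 12.4, 15.2, 13.1 and 5.98 over all 14109 loci that met this filter. The 5 most abundant members held 44.8%, 42.8%, 41.5% and 57.8% of the family's FPKM across stages I to IV, so the stage IV total was concentrated in fewer genes. In stages I, II and III usp10 led, and the next 3 places went to usp37, usp1 and usp5 in some order. In stage IV the order was usp37, USP53, usp7, usp10 and usp11.

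**Figure D1:**
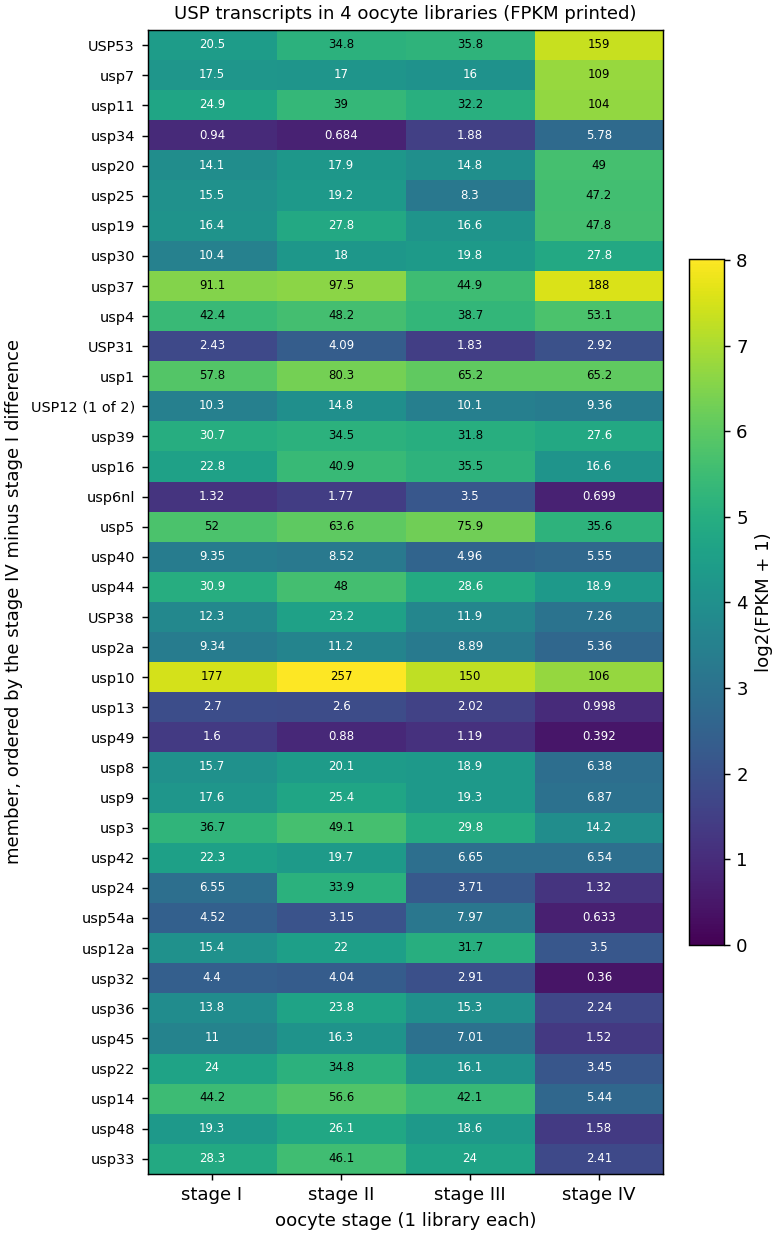
FPKM of the 38 USP loci that passed the filter on the mean (rows) in the stage I, II, III and IV libraries (columns). Colour is log2(FPKM + 1), the printed number is FPKM, and rows run from the highest to the lowest stage IV minus stage I difference. Levels in stage IV depart from those of the 3 earlier stages at both ends, from USP53 (159 FPKM in stage IV) to usp33 (2.41 FPKM in stage IV).

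Between stage IV and stage I, the last and first libraries of the series, the USP family split: 9 of 38 loci were higher and 14 were lower by at least 1 on the log2(FPKM + 1) scale, a 2-fold difference on this scale. The largest positive differences were those of USP53, usp7 and usp11, and the largest negative ones those of usp33, usp48 and usp14. Of the 9 higher loci, usp34 had the lowest mean over the 4 libraries, 2.32 FPKM. The shares of USP loci, 23.7% higher and 36.8% lower, lay near those over all loci, of which 19.1% were higher and 44.4% lower. The family's median difference was -0.68 and that of all loci -0.75. Bounds did not overlap between the stages for 9 of the 9 higher and 13 of the 14 lower members. Most calls over all loci had such bounds too, as 18.7% of all loci were higher and 42.8% lower with bounds apart. Levels were scaled by the authors to each library's total. After median-of-ratios scaling the all-loci median moved up by 0.64 and the USP median changed sign to 0.10. Then 11 of 38 USP loci were higher, against 31.0% of all loci, and 10 were lower, against 32.0%. Of all loci past the rule 49.3% were then higher, against 30.0% in the deposited values. The sign turned for 9 members short of the rule: usp10, usp5, usp44, usp39, usp16, USP38, USP12 (1 of 2), usp2a and usp40. No USP locus past the rule changed direction under this scaling, but usp3, usp8, usp9 and usp42 no longer reached the rule, and usp1 and usp4 newly did. With a pseudocount of 5 in place of 1, usp34 on the higher side and usp8, usp9, usp24, usp32 and usp54a on the lower side fell short of it.

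**Figure D2:**
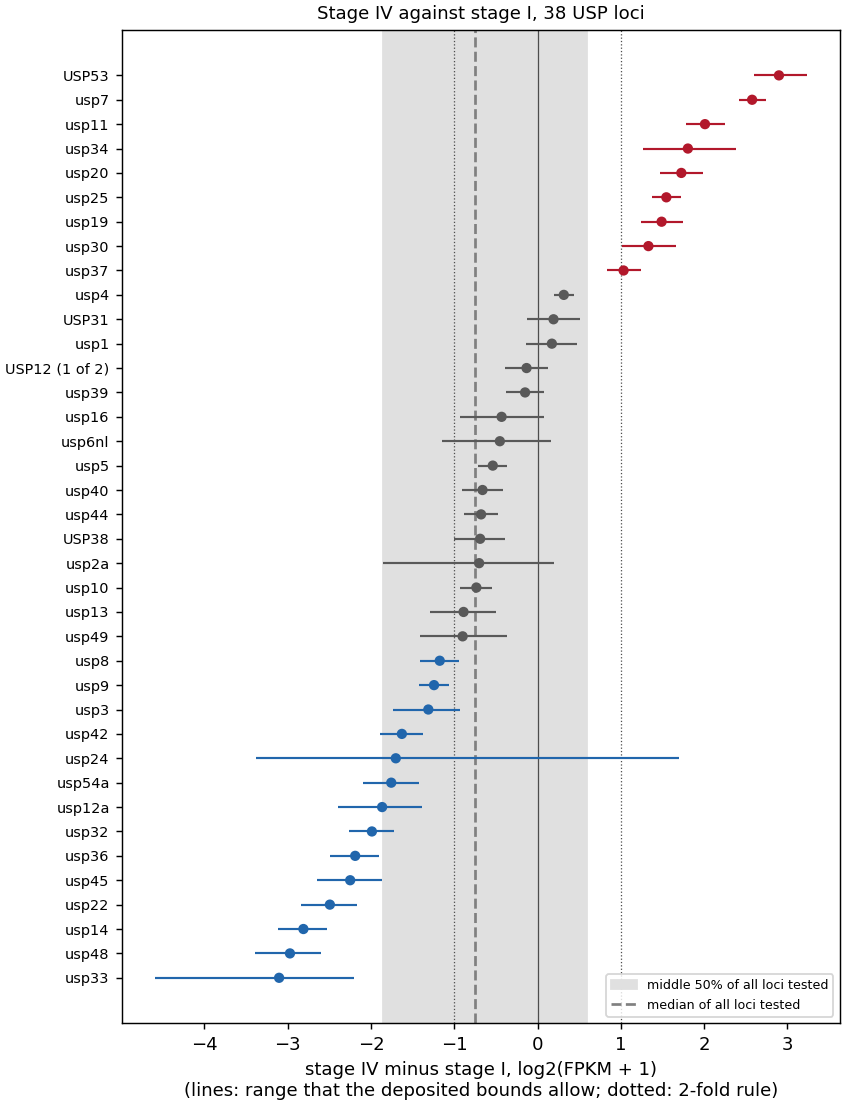
Stage IV minus stage I difference in log2(FPKM + 1) for 38 USP loci, with lines for the range that the deposited bounds allow. Red points are at least 1 higher in stage IV, blue points at least 1 lower, and the grey band and dashed line mark the middle 50% and the median (-0.75) of all loci tested. The USP points run from USP53 at 2.90 to usp33 at -3.10, and the line of usp24 crosses 0.

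The largest role group listed deubiquitinases of histones H2A and H2B. The genes usp7 and usp11, higher by the rule in stage IV, and usp48, lower, were listed under DNA damage instead, so the counts depend on this placement. None of the group's 9 tested members had a higher level by the rule in stage IV, against 19.1% of all loci. A lower level was seen for 5, against 44.4%. The group's median was -1.31 against -0.75 over all loci. After median-of-ratios scaling 3 of 9 were lower, near the 32.0% of all loci, and 0 were higher, against 31.0%. The group's median was then -0.57, against -0.10 over all loci. With 9 loci a departure from these shares was not tested. The gene usp22 (chromosome 12, 1670428 to 1703840, danRer7, as all positions below) encodes the enzyme of the SAGA coactivator complex that removes ubiquitin from H2B. Its level was 24.0, 34.8, 16.1 and 3.45 FPKM across stages I to IV. The stage IV bounds of 2.77 to 4.13 lay far below the stage I bounds of 22.04 to 26.0, a log2 difference of -2.49. For usp3 (chromosome 25, 27593811 to 27619900), an H2A deubiquitinase, the values were 36.7, 49.1, 29.8 and 14.2 FPKM, with a difference of -1.31. Stage II was its highest library and stage IV its lowest.

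The nucleolar enzyme gene usp36 stood at 13.8, 23.8, 15.3 and 2.24 FPKM across stages I to IV, a stage IV minus stage I difference of -2.19. Its relative usp42 was at 22.3, 19.7, 6.65 and 6.54 FPKM. For usp42 the lower level was already present in stage III, with bounds of 5.81 to 7.48 in stage III and 18.1 to 21.3 in stage II, and its bounds in stages IV and III overlapped. The gene usp44, whose product acts on H2B and in the spindle checkpoint, was at 30.9, 48.0, 28.6 and 18.9 FPKM, a difference of -0.68 that did not reach the rule. For its relative usp49 the values were 1.60, 0.88, 1.19 and 0.392 FPKM. The H2A deubiquitinase gene usp16 was at 22.8, 40.9, 35.5 and 16.6 FPKM, and its stage IV bounds (13.6 to 19.6) overlapped those of stage I (18.5 to 27.0).

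Genes of the DNA damage response went both ways, with 2 higher and 2 lower of 5 tested, against 19.1% and 44.4% of all loci. A count this small cannot be set apart from those shares. The gene usp7 (chromosome 3, 27757624 to 27791942) encodes an enzyme that stabilizes MDM2 and p53 and binds the maintenance methyltransferase DNMT1. It was flat through the first 3 stages, at 17.5, 17.0 and 16.0 FPKM, and stood at 109 in stage IV. Bounds were 104 to 114 in stage IV and 16.2 to 18.7 in stage I, a difference of 2.58. The bounds of stages I, II and III overlapped for each successive pair. For usp11 (chromosome 8, 9188734 to 9227766), which acts in BRCA2-dependent repair, values were 24.9, 39.0, 32.2 and 104 FPKM, a difference of 2.01.

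On the lower side, usp48 (chromosome 11, 37293331 to 37315095), an H2A deubiquitinase that opposes BRCA1, was at 19.3, 26.1, 18.6 and 1.58 FPKM, a difference of -2.97. The stage IV level was 12.2 times lower than that of stage I. The ERCC1 deubiquitinase gene usp45 was at 10.97, 16.3, 7.01 and 1.52 FPKM, a difference of -2.25. The levels of usp1, which acts on FANCD2 and PCNA together with WDR48, were 57.8, 80.3, 65.2 and 65.2 FPKM. The bounds of usp1 overlapped between stage IV (58.0 to 72.5) and stage I (51.7 to 63.8).

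The most abundant family member, usp10 (chromosome 7, 70340122 to 70381825), encodes an enzyme that binds the stress granule proteins G3BP1 and G3BP2 and acts on p53. It was at 177, 257, 149.8 and 106 FPKM across stages I to IV, and its share of the family's FPKM was 18.8%, 19.8%, 16.5% and 9.23%. The stage IV minus stage I difference, -0.73, did not reach the rule and turned to 0.13 after median-of-ratios scaling, although the bounds of 98.1 to 114 in stage IV and 168 to 187 in stage I did not overlap. The larger usp2a locus, named for an MDM2 and cyclin D1 deubiquitinase, was at 9.34, 11.2, 8.89 and 5.36 FPKM with overlapping bounds in stage IV and stage I. A second, shorter usp2a locus overlaps it on chromosome 15 and had a mean under 1 FPKM, so how reads were divided between them is uncertain.

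The cell cycle gene usp37 (chromosome 9, 700844 to 731786) encodes an enzyme that protects cyclin A from the anaphase-promoting complex. Its values were 91.1, 97.5, 44.9 and 188 FPKM across stages I to IV. Stage III was its lowest library and stage IV its highest, and the bounds of 176 to 199 in stage IV did not overlap the 83.7 to 98.4 of stage I. The differences were -1.10 between stages III and II, 2.04 between stages IV and III and 1.03 between stages IV and I. The bounds allow 0.83 to 1.24 for the last of these, so usp37 sits at the edge of the rule in the deposited values. After median-of-ratios scaling that difference was 1.89.

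Of 5 tested signalling enzymes 2 were higher, usp11 among them, and 2 lower, against 19.1% and 44.4% of all loci. This split did not hold under other settings. After median-of-ratios scaling 3 were higher and 0 lower, against 31.0% and 32.0% of all loci. With a pseudocount of 5, 1 was higher and 0 lower, against 15.3% and 27.5% of all loci. The gene usp34 (chromosome 1, 54184472 to 54217570) encodes a deubiquitinase of axin in the Wnt pathway and was at 0.940, 0.684, 1.88 and 5.78 FPKM, a difference of 1.81. Its levels in stages I to III lay near the filter of 1 FPKM, and its mean over the 4 libraries was 2.32 FPKM. Stage IV, where usp34 was highest, enters both that mean and the difference. The TGF-beta receptor deubiquitinase gene usp4 was at 42.4, 48.2, 38.7 and 53.1 FPKM, a difference of 0.32. The gene usp9, whose human namesake USP9X acts on SMAD4, stood at 17.6, 25.4, 19.3 and 6.87 FPKM, a difference of -1.24. The endosomal enzyme gene usp8 was at 15.7, 20.1, 18.9 and 6.38 FPKM, a difference of -1.17.

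Among 6 tested enzymes of mitochondria and membranes, usp8 included, stage IV levels were higher for 3 and lower for 3, against 19.1% and 44.4% of all loci. With a pseudocount of 5, 3 were higher and 1 was lower, against 15.3% and 27.5% of all loci. The gene usp30 (chromosome 5, 21909262 to 21919007) encodes a mitochondrial outer membrane enzyme that opposes the removal of mitochondria. Its levels were 10.4, 17.97, 19.8 and 27.8 FPKM, higher at each stage, although the bounds of stages II and III overlapped. The stage IV minus stage I difference was 1.33. The gene was 1 of 2 members past the rule between stages IV and I that did not reach it between stages IV and III. The other was usp42. The gene usp19, for an enzyme with a form anchored in the endoplasmic reticulum, was at 16.4, 27.8, 16.6 and 47.8 FPKM, a difference of 1.49. For usp32, a gene of a Golgi and endosome enzyme, values were 4.40, 4.04, 2.91 and 0.360 FPKM, a difference of -1.99.

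The proteasome-bound enzyme gene usp14 (chromosome 2, 2941647 to 2964335) was at 44.2, 56.6, 42.1 and 5.44 FPKM across stages I to IV. It ranked 24 in the family in stage IV and 5 in stage I. The difference was -2.81, with bounds of 4.50 to 6.38 FPKM in stage IV and 41.5 to 46.9 in stage I. The gene usp5, for the enzyme that takes apart free ubiquitin chains, was at 52.0, 63.6, 75.9 and 35.6 FPKM, higher in stage III than in any other library. Its stage IV minus stage III difference was -1.07 and its stage IV minus stage I difference -0.54. The spliceosome gene usp39 varied least among the abundant members in the deposited values, at 30.7, 34.5, 31.8 and 27.6 FPKM. Its bounds in stage IV and stage I overlapped, but the difference between these stages, -0.15, turned to 0.69 after median-of-ratios scaling.

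USP53 (chromosome 7, 72489000 to 72511552), named for a protein of tight junctions, had the largest positive difference between stages IV and I of the 38 loci. Its values were 20.5, 34.8, 35.8 and 159 FPKM, and the bounds ran over 149.8 to 169 in stage IV and 17.0 to 23.9 in stage I. It ranked 2 in the family in stage IV and 15 in stage I. The difference was 2.90. The gene usp25, for an enzyme of immune and inflammatory signalling, was at 15.5, 19.2, 8.30 and 47.2 FPKM, lowest in stage III and highest in stage IV. Its stage IV minus stage I difference was 1.55 and its stage IV minus stage III difference 2.37.

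Of the other tested members, usp54a was at 4.52, 3.15, 7.97 and 0.633 FPKM, highest in stage III, with a stage IV minus stage I difference of -1.76. The values of usp24 were 6.55, 33.9, 3.71 and 1.32 FPKM, but its bounds were wide, at 12.6 to 55.2 in stage II and 0.0107 to 13.1 in stage I, and those of stage IV and stage I overlapped. USP38 was at 12.3, 23.2, 11.9 and 7.26 FPKM, usp40 at 9.35, 8.52, 4.96 and 5.55, and USP31 at 2.43, 4.09, 1.83 and 2.92. None of these 3 genes reached the rule in any of the 4 comparisons. The Rab regulator gene usp6nl was at 1.32, 1.77, 3.50 and 0.699 FPKM, highest in stage III and lower by 1.41 on the log2 scale in stage IV than in stage III.

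Among the groups of related USP genes, 2 held members past the rule in opposite directions between stages IV and I, namely usp20 with usp33 and USP53 with usp54a. Shares of a group's FPKM do not depend on how libraries are scaled. For usp20 and usp33, whose human namesakes both bind the VHL protein, the levels crossed. The gene usp20 (chromosome 5, 34916598 to 34948192) was at 14.1, 17.9, 14.8 and 49.0 FPKM across stages I to IV, a stage IV minus stage I difference of 1.73. The gene usp33 (chromosome 2, 8501496 to 8561837) was at 28.3, 46.1, 24.0 and 2.41 FPKM, a difference of -3.10. Thus usp20 held 33.2%, 28.0%, 38.2% and 95.3% of the pair's FPKM across stages I to IV. The stage IV bounds of usp33 (0.393 to 4.44 FPKM) were wide for its level.

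**Figure D3:**
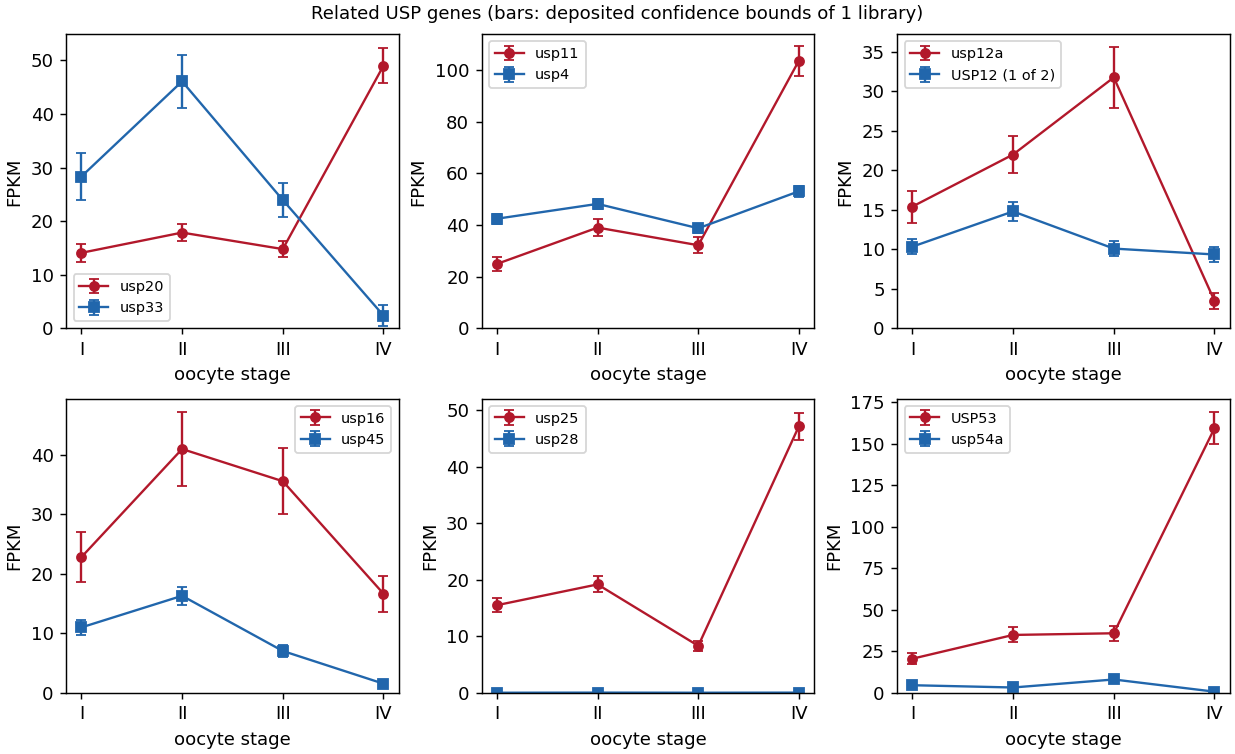
FPKM (vertical axes) by oocyte stage for 6 pairs of related USP genes, with the deposited bounds of each library as bars. The lines of usp20 and usp33, of usp11 and usp4, and of usp12a and USP12 (1 of 2) cross between stages III and IV, while usp28 stayed at or under 0.02 FPKM.

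The 2 tested copies of usp12, whose product works with WDR48 and WDR20, also separated. The gene usp12a was at 15.4, 21.99, 31.7 and 3.50 FPKM, a difference of -1.87 between stages IV and I. USP12 (1 of 2) was at 10.3, 14.8, 10.1 and 9.36 FPKM, a difference of -0.13, and its bounds overlapped in stage IV and stage I. As a result usp12a held 59.0%, 59.2%, 74.6% and 26.1% of the FPKM of the group that also includes usp46. Their close sequence makes the division of shared reads uncertain, and how the authors counted such reads is not stated.

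Within the group of usp4, usp11 and USP15, the share of usp11 was 37.0%, 44.7%, 45.4% and 66.1% across stages I to IV. These are shares of usp4 and usp11 only, as USP15 lies on an unplaced scaffold, where every locus was listed at 0. The pairs of usp5 with usp13, usp44 with usp49 and usp16 with usp45 kept their order in all 4 libraries. The share of usp5 in its pair with usp13 was between 95.1% and 97.4%, with usp13 at 2.70, 2.60, 2.02 and 0.998 FPKM. The share of usp44 in its pair with usp49 was between 95.1% and 98.2%. For usp16 and usp45 the share of usp16 was 67.5%, 71.5%, 83.5% and 91.6%. The pair of usp36 and usp42 changed order: usp42 held 61.8%, 45.3%, 30.3% and 74.4% of it across stages I to IV. In the group of USP53, usp53b, usp54a and USP54 (1 of 2), USP53 held 79.8%, 89.1%, 78.8% and 98.9%.

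Between stages II and I the USP family differed little and mostly upward. Only usp24 passed the 2-fold rule upward, 1 of 38 loci or 2.63%, against 2.67% over all loci, and its bounds overlapped. None passed it downward, against 3.15% over all loci. Of any size, 30 of 38 differences were above 0, against 66.6% over all loci, and the median was 0.42 against 0.20. Of all loci past the rule 26.1% were higher after median-of-ratios scaling, against 45.9% in the deposited values. The medians under this scaling were 0.25 for the family and 0.05 over all loci. The largest differences after usp24 were those of USP38 (0.86), usp16 (0.82), usp36 (0.75) and USP53 (0.74), each with bounds that did not overlap.

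In stage III most levels were lower again. By the rule 6 USP loci, or 15.8%, were lower in stage III than in stage II, against 7.50% over all loci: usp24, usp42, usp25, usp45, usp37 and usp22. Only usp54a was higher, 2.63% against 8.67% over all loci. The median was -0.37 for the family and -0.10 over all loci. A level higher in stage II than in stage I and lower in stage III than in stage II, of any size, was seen in 25 of 38 USP loci (65.8%) and in 42.6% of all loci. Stage II held the highest value of 19 of the 38 USP loci, or 50.0%, against 30.5% of all loci. These counts share the stage II library, so a deviation of that library enters both steps. In the same step 5 of 13 follicle, 6 of 8 blood and 8 of 9 stroma and epithelium markers were higher in stage III by the rule, and their part in the USP values was not tested. After median-of-ratios scaling 2 of 38 USP loci were lower by the rule, against 4.98% of all loci, so the share of USP loci was then near the background. The family's median stayed lower under this scaling, at -0.26 against 0.007 over all loci. Of all loci past the rule after this scaling, 65.5% were higher, against 53.6% in the deposited values.

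The step to stage IV carried most of the differences. By the rule 8 USP loci (21.1%) had higher levels in stage IV, against 16.4% of all loci, and 16 (42.1%) had lower ones, against 46.0% of all loci. Of the 23 loci past the rule between stages IV and I, 21 were also past it between stages IV and III in the same direction, and these comparisons share the stage IV library. This last step added usp5, usp16 and usp6nl on the lower side. Stage IV held the lowest value of 25 of the 38 loci (65.8%) and the highest of 10 (26.3%), against 59.6% and 27.0% of all loci. After median-of-ratios scaling 11 of 38 USP loci were higher and 9 lower in this step, against 30.0% and 32.2% of all loci. The family's median turned to 0.18, against -0.62 in the deposited values. Of all loci past the rule 48.3% were then higher, against 26.3% in the deposited values.

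**Figure D4:**
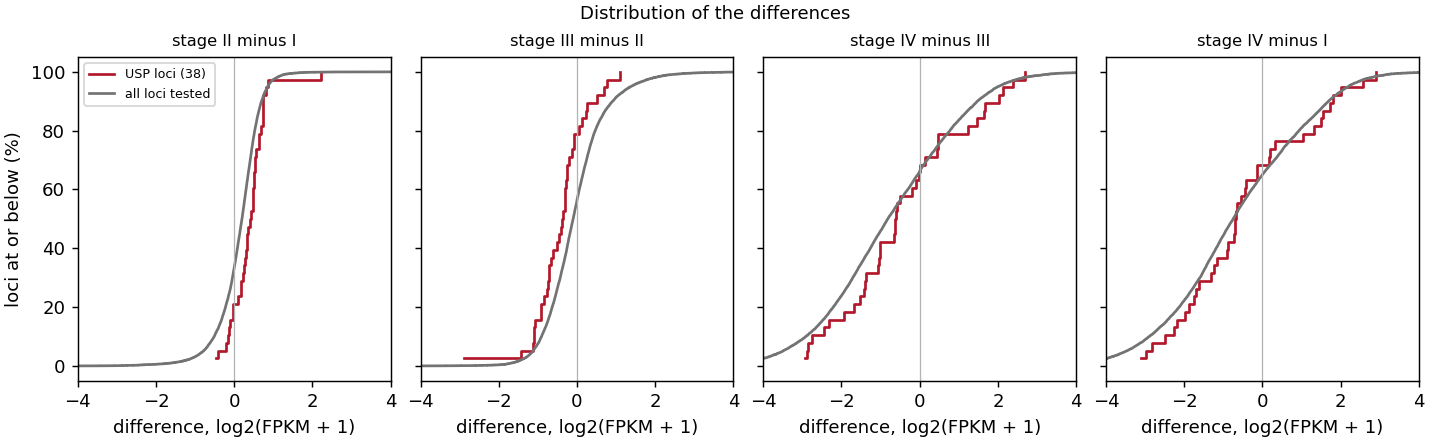
Share of loci (vertical axis, %) at or below each difference in log2(FPKM + 1) (horizontal axis) for 38 USP loci (red) and all 14109 loci tested (grey), in the 4 comparisons. The red curve lies to the right of the grey one for stage II minus I (medians 0.42 and 0.20), to the left for stage III minus II (-0.37 and -0.10), and close to it for stage IV minus I (-0.68 and -0.75).

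The remaining 15 USP loci had a mean under 1 FPKM. Of these, usp43b (1.30, 1.23, 1.195 and 0.257 FPKM across stages I to IV) and the short usp2a locus (1.29, 0.665 and 1.58 FPKM in stages I to III) reached 1 FPKM in at least 1 library. The values of usp53b, USP54 (1 of 2), usp46, usp43a, USP21, USP2 (2 of 3), USP2 (3 of 3), USP29 and usp28 lay below 1 in each. The DNA damage checkpoint gene usp28 was at no more than 0.02 FPKM, whereas its relative usp25 was at 8.30 FPKM or more. The other 4, usp47, USP15, USP30 (2 of 3) and USP30 (3 of 3), were listed at 0 in all libraries. All 4 lie on unplaced scaffolds of the danRer7 build, and each of the 819 loci on such scaffolds was listed at 0 in each library, against 16.8% of the loci on chromosomes. Their zeros therefore say nothing about whether these genes were transcribed. No locus named usp18, the ISG15 protease, was found.

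Other genes of the pathway were set beside the family by lists, in the stage IV against stage I comparison. Over all loci tested 19.1% were higher and 44.4% lower, and after median-of-ratios scaling 31.0% and 32.0%. Of 10 tested loci of USP partners, 3 were higher and 1 lower, with a median of 0.04, and after that scaling 5 were higher and 0 lower. The higher ones were WDR48 (2 of 3), at 5.47, 11.3, 9.30 and 23.3 FPKM across stages I to IV, wdr48, at 20.2, 28.7, 30.4 and 55.1, and eny2, at 94.3, 118, 168 and 254. WDR48 activates usp1, usp12 and usp46, and ENY2 is a subunit of the SAGA module that holds USP22. Levels of eny2 and usp22 thus differed in opposite directions. Another gene of that module, atxn7l3, was at 9.87, 11.8, 9.74 and 7.56 FPKM. The partner g3bp1 was at 376, 430.2, 371 and 512, g3bp2 at 6.99, 6.27, 2.91 and 2.53, its copy G3BP2 (2 of 3) at 93.9, 111, 125 and 66.0, and gmps, a partner of usp7, at 21.98, 28.4, 18.02 and 18.1.

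Of 30 tested loci of other deubiquitinase families, 20 were lower, against 44.4% of all loci, and 2 higher, against 19.1%, with a median of -1.37. After median-of-ratios scaling 12 were lower, against 32.0% of all loci, and 5 higher, against 31.0%. The ubiquitin hydrolase gene uchl1 was at 924, 721, 760.4 and 188 FPKM across stages I to IV, and uchl5, whose product binds the proteasome, at 48.2, 63.2, 75.2 and 7.67. ATXN3 was at 28.8, 30.6, 12.8 and 1.33 FPKM, josd2 at 51.9, 70.8, 64.7 and 4.56, and otud5b at 29.5, 34.8, 31.8 and 2.498. The genes fam63a and otud5a had differences of -2.98 and -2.85, and brcc3 one of -2.46. The 2 higher genes were otud4, at 49.3, 73.0, 64.9 and 205, and mysm1, an H2A deubiquitinase gene, at 9.20, 14.0, 12.9 and 32.1. The proteasome lid enzyme gene psmd14 was at 96.6, 103, 120.3 and 174 FPKM, a difference of 0.84, while usp14 and uchl5, both of proteasome-bound enzymes, differed by -2.81 and -2.51.

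Genes for ubiquitin and for the enzymes that activate it had 4 lower and 0 higher of 7 tested loci, against 44.4% and 19.1% of all loci, with a median of -1.08. The ubiquitin fusion gene rps27a, at 767, 559, 816 and 235 FPKM across stages I to IV, also encodes a ribosomal protein. The polyubiquitin gene ubc was at 487, 396, 493 and 523 FPKM. The activating enzyme gene uba1 was at 171, 192, 164 and 80.7 FPKM and UBA6 at 4.84, 8.23, 7.32 and 1.41. After median-of-ratios scaling 1 of the 7 was lower, against 32.0% of all loci.

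**Figure D5:**
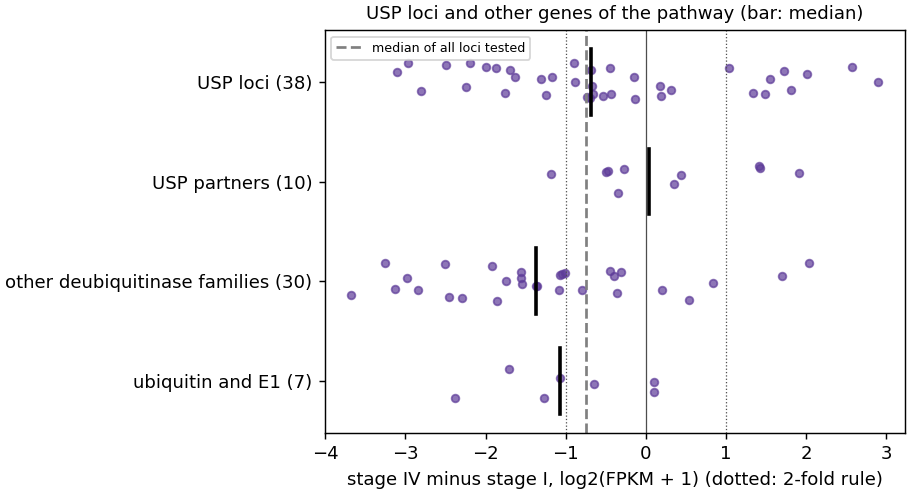
Stage IV minus stage I difference in log2(FPKM + 1) for 38 USP loci, 10 USP partners, 30 loci of other deubiquitinase families and 7 ubiquitin and E1 (activating enzyme) loci, 1 point per locus, with black bars for the medians (-0.68, 0.04, -1.37 and -1.08). The dashed line is the median of all loci tested (-0.75), and the vertical spread within a row has no meaning.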

How the data were processed

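Poly(A) RNA-seq of 4 oocyte libraries was used, 1 per stage, grouped by the stage in the labels. The authors deposited FPKM values with a lower and an upper bound per locus, per the file headers. Which program made them is not stated. For the whole series, STAR 2.5.3a, Bismark, Trim Galore and Bowtie2 2.2.2 and the build danRer7 stand without roles in the submitters' processing notes. Poly(A) selection can lose a transcript whose tail shortens.

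Files were joined on symbol and locus. Starts count from 0 in the files (by which 10 of 13 mitochondrial protein genes span a multiple of 3), so 1 was added. All USP loci had the status OK, and 46 of 53 had a symbol in a current name table. Stage differences are on the log2(FPKM + 1) scale, which understates changes of low genes, over 14109 loci whose mean reached 1 FPKM, and passed the rule at 1. The fragments behind a value were taken as 4 times the squared ratio of FPKM to the width from FPKM to its upper bound. Members, role lists, pathway lists and tests were chosen with earlier results of these data known. All 4 values were printed for tested members past the rule in any comparison, for the 5 most abundant and for tested members of the groups of related genes. From the pathway lists, those past the rule in stage IV against stage I were named, at most 8 per list, and usp39, usp40, psmd14, ubc, atxn7l3, g3bp1, G3BP2 (2 of 3), gmps, otud4 and mysm1 were named after their values were seen. The values of 1 listed gene are not reported here. The call rule was tested on simulated data. Python 3.11.15, pandas 2.3.3 and numpy 2.4.6 were used.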

Additional observations from a re-analysis of the deposited data

How the results depend on the processing

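No paired analysis was possible because each stage has 1 library. Of 80 member counts under alternatives, 63 stayed within 1.5 times. In stage IV against stage I, the lower count was 9 of 38 with a pseudocount of 5, against 27.5% of all loci. A difference of at least 2 left 3 higher and 6 lower, against 6.75% and 22.3% of all loci. In stage IV against stage III, 9 of 38 were lower with a pseudocount of 5, against 29.0% of all loci. With median-of-ratios scaling 9 were lower too, against 32.2%. A difference of at least 2 left 4 higher and 6 lower in this step, against 5.04% and 23.9%. In stage III against stage II, 3 were lower with a pseudocount of 5, 2 with scaling and 1 with a difference of at least 2. Over all loci the lower shares were 2.59%, 4.98% and 0.411% in that order. The higher count there was 2 with a pseudocount of 0.1, against 11.7% of all loci. It was 0 with a pseudocount of 5, a mean of at least 10 FPKM or a difference of at least 2. Over all loci the higher shares were 3.50%, 3.78% and 1.87% in that order. It was also 0 without loci that were 2-fold higher in stage III, which that choice fixes. In stage II against stage I the higher count was 0 where bounds had to be apart and 0 without loci of wide bounds. Over all loci the higher shares were 2.03% and 1.89%. Leaving out loci higher in stage III and loci of wide bounds (reaching over 0.5 of the FPKM) were alternatives chosen after seeing the data. Median-of-ratios scaling turned the member median to 0.18 in stage IV against stage III and to 0.10 in stage IV against stage I. Without a filter on low values they were -0.30 and -0.23. The median of the 3 tested p53 and MDM2 loci in stage IV against stage I was -0.70. It became 0.13 with scaling, 0.92 with a mean of at least 10 FPKM and 0.92 without loci of wide bounds. The mean filter leaves only usp7 and usp10 there, as usp2a had a mean of 8.68 FPKM. The median of the 3 tested cell cycle loci, -0.43, became 0.40 with scaling. That of the 5 tested signalling loci, 0.32, became -0.43 under the same mean filter. Of 69 differences recomputed for single members past the rule, 42 moved beyond the range of their bounds under another pseudocount or scaling, and 0 changed direction. The cause was not tested. If the bounds reflected counting alone, 10 of 152 tested values would rest on fewer than 20 fragments. Not all of these were low in level, as usp24 stood at 33.9 FPKM in stage II with 10.1 such fragments. Why their bounds were wide was not tested.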
